A study of Mus musculus with 4 samples.

Results

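Zinc finger transcription factors form the largest family of transcription factors in the mouse genome, and their liver mRNAs are described here. The members were taken by name alone. They are the listed mRNAs whose symbol begins with Zfp and a digit, or with Zkscan, Zscan or Zbtb, leaving out Zbtb16, and there were 185 of them among 7000 listed mRNAs. By name, 157 were Zfp, 21 Zbtb, 5 Zkscan and 2 Zscan genes.

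Male FVB/N mice were fed a Se-deficient diet for 6 weeks, given either without added Se (0 Se, 2 mice) or with 0.1 ppm Se as sodium selenite (0.1 Se, 2 mice). RNA from the livers, depleted of ribosomal RNA, was sequenced. The deposited values used here are the length of each mRNA and its log2 mean CPM (read counts scaled to a common library size) over the 4 libraries of both diets. The listed rows stand in order of the p-value of the authors' diet comparison. Being listed depends on that order as well as on level, so an unlisted gene may still be expressed in liver. There were 0 columns for a single mouse, so the depth of each library, the spread between mice and the effect of diet on these mRNAs were not analysed here. All levels below are therefore single pooled values from mice of both diets, with no replicate error, and no difference between mRNAs was tested.

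A classical (C2H2) zinc finger is a short fold held together by a zinc ion that is bound by a pair of cysteines and a pair of histidines, and neighbouring fingers read neighbouring bases of DNA. Many Zfp proteins also carry a KRAB domain, which recruits the corepressor Trim28 and the histone methyltransferase Setdb1 and silences transposable elements and imprinted loci. Zbtb proteins carry a BTB domain, through which they pair and bind corepressors such as Ncor1. Zkscan and Zscan proteins carry a SCAN domain, through which they pair with each other.

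The fingers of the members could be counted in the coding sequences. A complete coding sequence was found for 175 of the 185 members in GENCODE vM1, and 167 of these had at least 1 C2H2 match, with 1634 matches in all and a median of 9 per protein. The highest count was 36 in Zfp142, followed by 29 in Zfp236, 27 in Zfp646 and 23 in Zfp788, with 21 each in Zfp11 and Zfp27. These many-fingered members spanned a wide range of levels, from 1.67 CPM for Zfp11, 4.33 CPM for Zfp788 and 4.73 CPM for Zfp142 to 10.2 CPM for Zfp27, 24.4 CPM for Zfp646 and 31.0 CPM for Zfp236. In 119 of the 166 members whose fingers could be placed on exons, every finger was encoded by the last exon, and in 16 members the fingers were spread over 5 or more exons.

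Neighbouring fingers are joined by a short linker with the residues TGEKP or TGERP, which is the most conserved stretch of the family. This linker was found 691 times in 125 members. Coding sequence for it could be read at 641 places in 118 members where a histidine preceded it and a tyrosine or phenylalanine followed, and the 15 bases of the linker took 199 different forms there. The commonest form made up 12.2% of them (78 linkers, in 23 members) and the next 7.49% (48 linkers). The first linker of 9 members is given to set members with high levels beside the lowest ones per kilobase, each read 5′ to 3′ on the coding strand of NCBIM37 (mm9), with the 15 linker bases in capitals.
Zfp445, chr9:122762007-122762027, minus strand: catACAGGGGAGAAACCGtac
Zfp187, chr13:21537223-21537243, minus strand: catACTGGAGAAAAACCCtat
Zfp110, chr7:13434903-13434923, plus strand: cacACAGGAGAGCGGCCAtat
Zfp260, chr7:30890152-30890172, plus strand: cacACCGGAGAGAAACCGttt
Zfp281, chr1:138522700-138522720, plus strand: cacACGGGCGAAAGGCCTttc
Zfp617, chr8:74456375-74456395, plus strand: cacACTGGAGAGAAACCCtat
Zfp300, chrX:20659753-20659773, minus strand: catACAGGTGAAAAACCAtat
Zfp248, chr6:118379430-118379450, minus strand: cacACCGGAGAGAAACCGtat
Zfp558, chr9:18261383-18261403, minus strand: catACTGGAGAAAAACCAtat
The linker of Zfp617 is the commonest form. That of Zfp281 differed from it at 6 bases and that of Zfp110 at 5, and both encode TGERP, whereas the other linkers shown encode TGEKP. The linkers of the 3 members lowest in CPM per kilobase, Zfp300, Zfp248 and Zfp558, differed from the commonest form at 4, 2 and 2 bases, and those of Zfp445, Zfp260 and Zfp187 at 3, 2 and 1. The shared peptide was fixed by the search, and 50 of the 175 members with a coding sequence had no such linker.

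Zinc finger mRNAs were listed at low levels. Their median was 7.93 CPM, with the middle 50% between 3.45 and 17.1 CPM, against a median of 19.1 CPM for the 6815 other listed mRNAs. The members ranged from 0.992 CPM for Zfp677 to 162 CPM for Zfp106. Only 2 members (1.08%) were above 100 CPM, Zfp106 and Zfp445, compared with 13.3% of all listed mRNAs, and 24 members (13.0%) were below 2 CPM compared with 7.10%. Per kilobase of listed mRNA, the member median was 2.27 CPM and that of the other listed mRNAs 6.42 CPM.

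**Figure D1:**
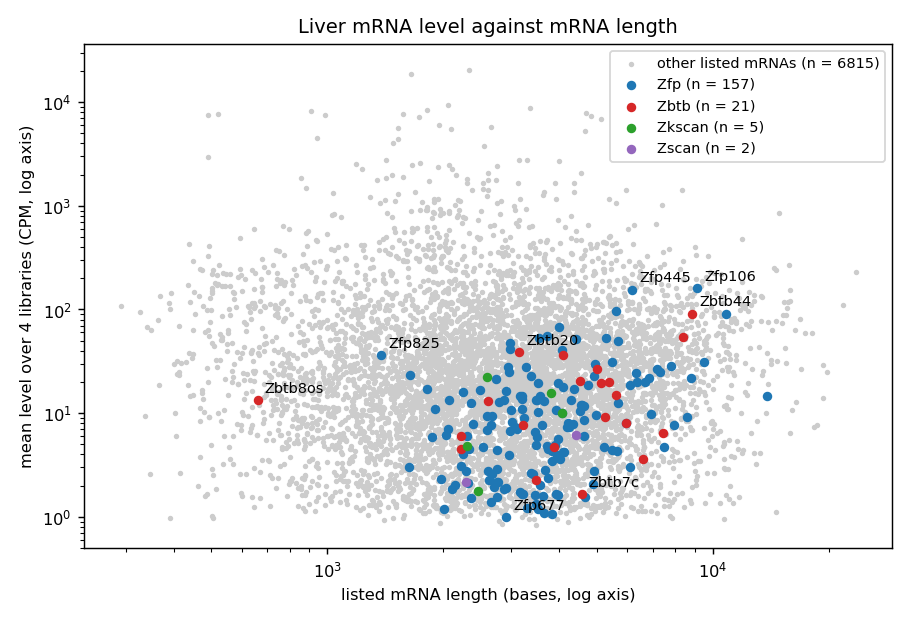
Each point is a listed mRNA, with its length in bases on the horizontal log axis and its mean level over 4 libraries in CPM on the vertical log axis; grey points are the 6815 other mRNAs and coloured points the 185 zinc finger mRNAs by name. The coloured points lie mostly in the lower part of the grey cloud, and Zfp106 and Zfp445 alone exceed 100 CPM.

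Since a longer mRNA yields more reads at the same number of molecules, each member was set against the other listed mRNAs within 10% of its length. The members were long, with a median of 3574 bases against 2926 for the others, and so needed such a comparison. Of the 185 members, 147 were below the median of their length-matched mRNAs and 38 above it, which is 79.5% below. The median difference was -1.19 on the log2 scale, which is 0.439 of the level of mRNAs of similar length. In their own length class, 80 members were in the lowest 25% and 11 in the highest 25%, and 36 were in the lowest 10% and 2 in the highest 10%.

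**Figure D2:**
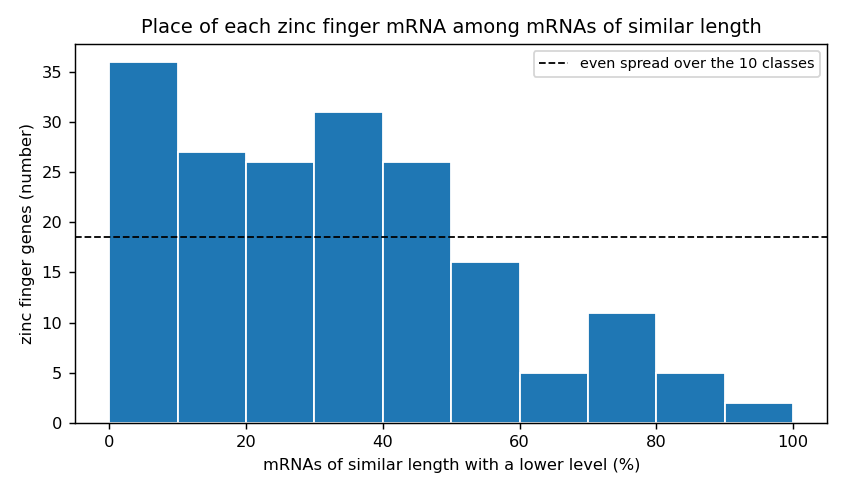
Bars count the zinc finger genes (vertical axis) by the percentage of mRNAs of similar length with a lower level (horizontal axis), and the dashed line is an even spread over the 10 classes. The class with the lowest levels holds 36 genes and the class with the highest holds 2.

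The distance to mRNAs of similar length was smaller for the longest members. Among the 30 members of up to 2500 bases, 28 were below their length-matched median, with a median log2 difference of -1.73. Among the 56 members above that and up to 3500 bases it was 47 members and -1.24, and among the next 62, up to 5000 bases, 49 members and -1.16. Of the 37 members over 5000 bases, 23 were below, with a median log2 difference of -0.36. Across the members, length and CPM had a Spearman correlation of 0.340 (n = 185), and across the other listed mRNAs of 0.0194 (n = 6815). All these points come from the same 4 libraries, genes are not independent replicates, and both values are given as descriptions.

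The 21 Zbtb mRNAs had a median of 13.2 CPM and 13 were below their length-matched median (median log2 difference -0.87). The 157 Zfp mRNAs had a median of 7.79 CPM and 128 were below (-1.21). The Zkscan mRNAs stood at 1.78 CPM (Zkscan4), 4.81 (Zkscan6), 10.1 (Zkscan17, which encodes a partner of the histone methyltransferase Nsd1), 15.7 (Zkscan5) and 22.1 CPM (Zkscan3, a repressor of autophagy genes). Of the 5, Zkscan3 alone was above its length-matched median, at 1.35 times that level. Zscan2 was at 2.16 CPM and Zscan12 at 6.17 CPM, both below. With no replicate values, none of these differences between subfamilies could be set against a spread.

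Per kilobase, the highest member was Zfp825 at 26.3 CPM, whose gene has no complete coding sequence in the annotation. It was followed by Zfp445, which acts with Zfp57 in maintaining imprinted methylation, at 25.1 CPM. The third was Zbtb8os, at 20.3 CPM per kilobase from a listed length of 660 bases. It is a cofactor of the tRNA ligase that shares only its neighbour's name and has no finger. Against mRNAs of similar length Zbtb8os was below the median, at 0.547 times that level. Zfp106, an RNA-binding protein, stood at 17.8 and Zfp91, a ubiquitin ligase of the non-canonical NF-kB pathway, at 17.1. Zfp187, now Zscan26, was at 16.8 and Zfp36l1, which binds AU-rich elements and speeds mRNA decay, at 16.1. The remaining members of the 15 highest were Zfp110 (Nrif, a partner of the p75 neurotrophin receptor, 14.9), Zfp260 (14.9), the nucleolar protein Zfp330 (14.3), Zfp259 (Zpr1, which binds the elongation factor eEF1A, 13.9), Zbtb20 (12.3), Zfp706 (11.8), Zbtb44 (10.3) and Zfp281, a regulator of pluripotent cells (10.05). Of these 15, Zbtb8os, Zfp36l1, Zfp330 and Zfp259 have no C2H2 match.

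**Figure D3:**
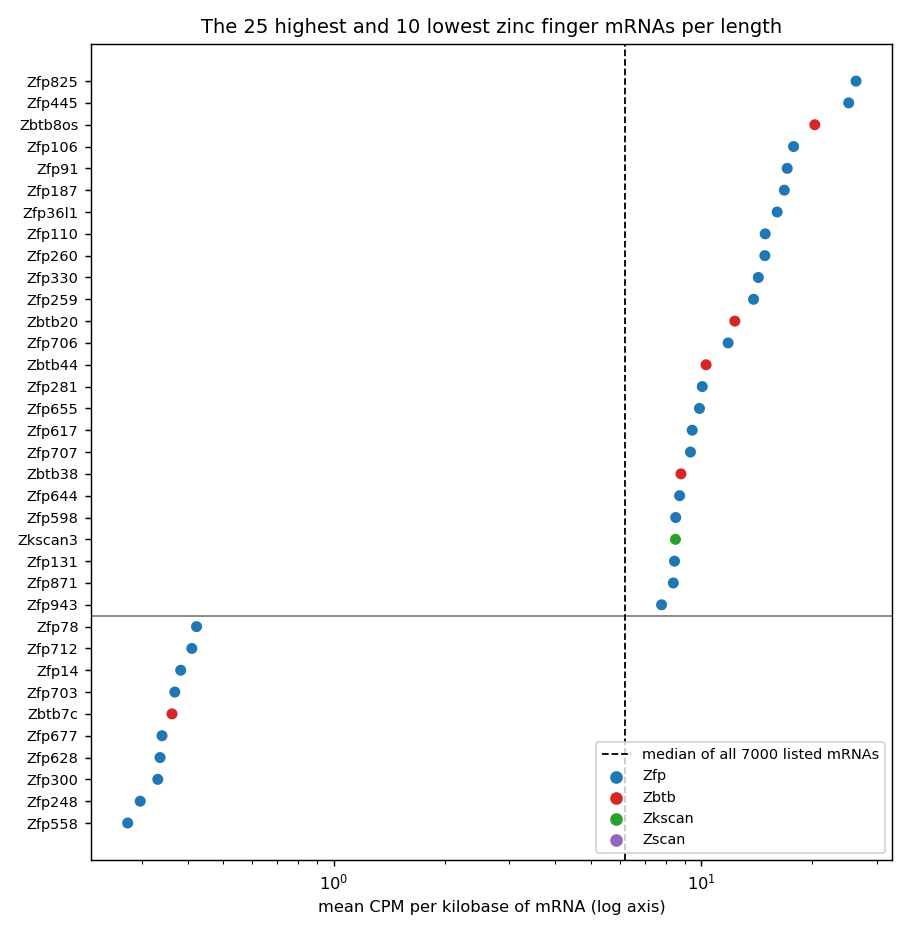
Mean CPM per kilobase of mRNA (horizontal log axis) for the 25 highest and the 10 lowest zinc finger mRNAs (vertical axis), coloured by name; the dashed line is the median of all 7000 listed mRNAs. The highest members lie above the median, up to 26.3 for Zfp825, and the lowest reach down to 0.275 for Zfp558.

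The 11 members in the highest 25% of their length class were Zfp445, Zfp106, Zfp91, Zfp187, Zfp36l1, Zfp110, Zfp260, Zfp706, Zbtb44, Zfp281 and Zfp871. Zfp445 (chr9:122761032-122771246) stood at 156 CPM, 7.12 times its length-matched median, with 91.9% of mRNAs of similar length lower. Zfp106 (chr2:120332556-120389579) stood at 162 CPM, 5.22 times that median, also with 91.9% lower. Zfp91 (chr19:12838150-12870616) was at 96.0 CPM and 4.97 times, and Zfp187 (chr13:21534044-21545599) at 67.0 CPM and 3.89 times. The other 7 were between 47.9 CPM (Zfp36l1) and 91.2 CPM (Zbtb44), at 2.81 to 3.06 times their length-matched medians. Zfp871 was the single one of the 11 with a KRAB core match. The search asks for a fixed core, so the others are not shown to lack a KRAB domain. The listed length of Zfp445, 6189 bases, is longer than its longest annotated mRNA of 2961 bases, so its value per kilobase depends on which transcript is taken. The same holds for Zfp825 (1383 bases listed, 822 in the longest annotated mRNA), Zfp871 (10850 and 5111) and, in the other direction, Zbtb8os (660 and 3833).

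At the low end per kilobase were Zfp558 (0.275), Zfp248 (0.297), Zfp300 (0.332), Zfp628 (0.336) and Zfp677 (0.341), at 0.992 to 1.55 CPM. These lie close to the 1 CPM minimum that the authors set for testing a gene. Each stood at no more than 0.0807 of its length-matched median, and 7 to 16 fingers were found in their proteins.

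Members with known roles in liver or in metabolism covered most of the range. Zbtb20, which represses the alpha-fetoprotein gene in adult liver, was at 38.7 CPM, 2.30 times its length-matched median. Its longest annotated mRNA has 26901 bases against 3140 listed, and reads from the part that was not in the listed transcript are not in this value. Zbtb7a, a repressor of fetal globin genes, was at 20.1 CPM (1.02 times), Zfp143, a promoter-bound activator, at 8.27 CPM (0.487 times) and Zfp467, a factor of adipocyte and bone cell fate, at 7.61 CPM (0.441 times). Zbtb7c was near the bottom at 1.66 CPM (0.0900 times). Zbtb7b, Zfp423, Zfp516 and Zfp638 were not among the listed rows and were not analysed here.

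Among the members listed for roles in RNA decay and at ribosomes, Zfp36l1 was at 47.9 CPM (2.81 times its length-matched median). Zfp598, the ubiquitin ligase that marks collided ribosomes, was at 28.0 CPM (1.58 times its length-matched median), and Zfp36l2, the paralogue of Zfp36l1, at 19.4 CPM (1.10 times). Zfp326, part of a complex that couples splicing to transcription, was at 7.62 CPM (0.469 times) and Zfp385a at 2.78 CPM (0.160 times). Zfp36, Zfp622 and Zfp346 were not listed. Among the readers of methylated DNA, Zbtb38 was at 36.0 CPM (2.09 times) and Zbtb33 (Kaiso) at 19.7 CPM (1.10 times). Of the other genes chosen for roles in imprinting or at methylated DNA, Zfp57, Zbtb4 and Zbtb24 were not listed. Of the genome maintenance factors, Zbtb48, which binds telomere repeats and limits their length, was at 6.07 CPM (0.340 times), and Zbtb10 at 6.36 CPM (0.235 times). Zbtb18, a repressor in developing neurons that is listed under its older symbol Zfp238, was at 29.9 CPM (1.60 times). Zbtb17, Zbtb40, Zfp207, Zbtb1 and Zfp451 were not among the listed symbols.

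Level also varied with the number of fingers. The 8 members with no match had a median of 16.4 CPM, the 32 with 1 to 4 matches 9.68 CPM, the 51 with 5 to 9 matches 10.9 CPM, the 57 with 10 to 14 matches 5.90 CPM and the 27 with 15 or more 6.58 CPM. Against mRNAs of similar length, the median log2 differences in the same order were -0.31, -1.04, -0.70, -1.87 and -1.50. The order is not even, and the Spearman correlation of finger number with that difference was weak, at -0.220 (n = 175 members, all from the same libraries). The 8 without a C2H2 match were Zfp703, Zfp330, Zfp781, Zfp36l2, Zfp259, Zfp36l1, Zbtb8os and Zfp750. They include Zfp36l1 and Zfp36l2, whose fingers hold zinc with 3 cysteines and 1 histidine, and Zfp781, whose annotated protein of 243 residues has a KRAB core and no finger. The longest annotated mRNA of Zfp781 has 732 bases against 4067 listed, so Zfp781 is not shown to lack fingers.

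A KRAB core was found in 46 members, all of them Zfp genes. Their median was 5.95 CPM and 41 of the 46 were below their length-matched median (median log2 difference -1.64). For the 129 members with a coding sequence and no KRAB match, the median was 9.25 CPM and 98 were below (-0.98). KRAB members had a median of 13 fingers against 7, an mRNA GC content of 40.5% against 49.0%, and 11 against 19 CpG in the promoter window (250 bases before to 50 after the start, GRCm38, 37 and 93 members with a window). Because fingers, GC content and promoter CpG moved together with the KRAB match, their parts in the lower level cannot be told apart. The search misses some KRAB domains, since it asks for a fixed core. Members without a match, among them all 5 Zkscan genes, are therefore not shown to lack the domain.

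**Figure D4:**
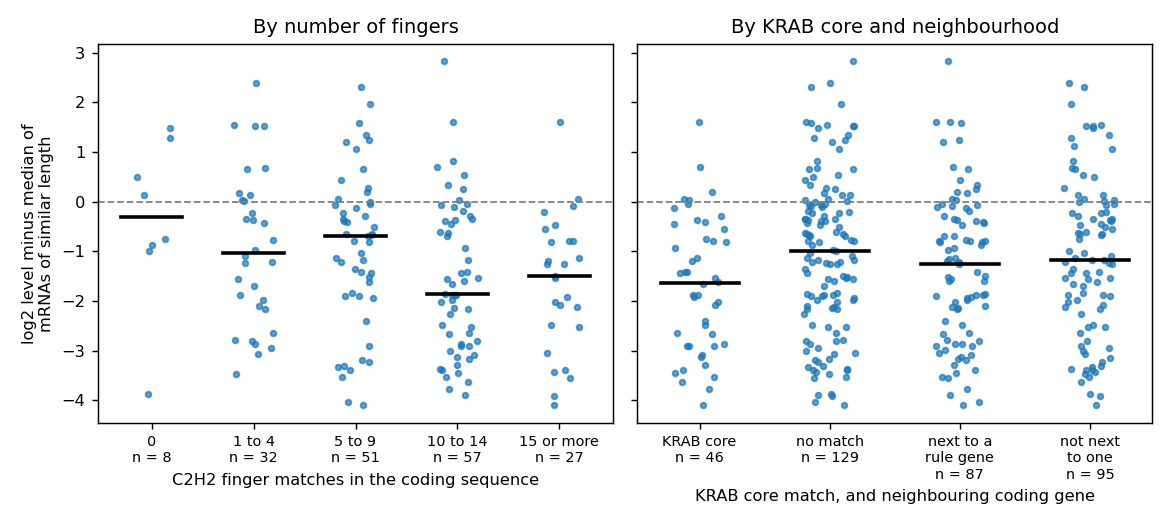
Points are zinc finger mRNAs, the vertical axis is the log2 difference between the level of a member and the median of mRNAs of similar length, and black bars are medians. The left panel groups members by C2H2 matches and the right panel by KRAB core match and by whether a neighbouring coding gene also fits the naming rule; the bar for members with a KRAB core is at -1.64 and that for members without one at -0.98.

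The members' mRNAs and promoters also differed in composition from those of other listed genes. The median GC content of the mRNA was 47.0% (n = 175) against 50.3% (n = 6719), and the median promoter held 15 CpG (n = 140) against 21 (n = 5086), with a GC content of 56.7% against 61.0%. Coding sequence made up a similar part of the mRNA, 53.2% against 54.1%, and was longer, 1719 against 1368 bases. Finger number and promoter CpG had a Spearman correlation of -0.452 across 130 members, so proteins with more fingers had promoters with fewer CpG in these data. Promoter CpG and level per kilobase were only weakly related (0.102, n = 140).

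Zinc finger genes lie in clusters, and many members had a neighbour of the same kind. Of the 182 members placed on the genome, 35 were on chromosome 7, 24 on chromosome 17 and 17 on chromosome 13. Directly next to another protein-coding gene entry matching the naming rule were 87 members. A second entry of the member's own symbol was not excluded as a neighbour (433 entries for 428 symbols match the rule). The same shares over all listed mRNAs are not given here. These 87 had a median of 7.38 CPM and 72 were below their length-matched median (-1.26), and the 95 others had a median of 8.27 CPM with 73 below (-1.17). With neighbours counted up to 3 genes away, the median log2 differences were further apart, at -1.41 for 105 members and -1.04 for the other 77. The order was not the same with and without a KRAB core. Without a KRAB match, members directly next to a rule gene were higher (-0.92, n = 52) than those not next to one (-1.04, n = 77). With a KRAB core they were lower (-1.885, n = 32, against -1.58, n = 14). None of these differences was tested. Members with and without such a neighbour differed more in structure, with a median of 11 fingers against 7, and with a KRAB core in 32 of 84 against 14 of 91 members with a coding sequence.

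In the annotation, 30 runs of at least 3 neighbouring rule genes held 136 genes, of which 51 (37.5%) were listed. Over the whole annotation, 42.3% of rule genes (181 of 428) and 30.9% of other protein-coding genes were listed. The run on chromosome 17 (chr17:21520712-21725664) was the only one of the 30 to be listed in full. Its 6 genes were Zfp51 at 9.42 CPM, Zfp53 at 7.38, Zfp948 at 6.81, Zfp54 at 4.67, Zfp52 at 1.74 and Zfp677 at 0.992 CPM. All 6 were below their length-matched medians, and 5 had a KRAB core. Other runs mixed high and low members. On chromosome 9 (chr9:122761032-122840146), Zfp445 at 156 CPM shared a run with Zfp105 at 1.18 CPM. On chromosome 17 (chr17:32908181-33023028), Zfp871 at 91.0 CPM shared one with Zfp799 at 7.83 CPM. On chromosome 7 (chr7:13353441-13494432), Zfp110 at 52.9 CPM was beside members of 3.45 and 7.76 CPM. The longest run, on chromosome 13 (chr13:67295442-67654065), had 13 genes, of which Zfp953 and Zfp455 were listed, and 5 runs had no listed gene. Since listing depends also on the order of the diet comparison, genes outside the list are not shown to be silent in liver.

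Clusters of this kind arise by gene duplication, and reads that fit more than 1 gene were not counted by the authors. The share of a member's 50-base words that occur exactly in the mRNA of another gene entry is a partial measure of how much this could touch. A second entry of the same symbol was not excluded. The authors allowed up to 2 mismatches, so reads that fit another gene less than exactly are not covered by it. This exact share was 0 in 110 of 182 members and above 10% in 12. It was above 50% in Zfp97 (82.1%), Zfp960 (84.5%) and Zfp781 (100%, from a short annotated mRNA), at 2.17, 2.57 and 10.1 CPM. The levels of at least these 3 are uncertain. Across the members, the share and the level per kilobase had a Spearman correlation of 0.0681 (n = 182).

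The partners of the family were also read from the list. Of 12 genes of KRAB repression, 7 were listed at 13.9 to 106 CPM with a median of 20.03 CPM, among them Setdb1 at 28.1 CPM and the remodeller Chd4 at 106 CPM, and Trim28 was not listed. Of 10 BTB corepressor genes, 8 were listed at 2.78 to 135 CPM, with Ncor1 highest at 135 CPM. Of 45 zinc finger factors whose names fall outside the rule, 27 were listed with a median of 20.3 CPM, from Egr1, an immediate early gene, at 1.17 CPM to Klf15, a regulator of gluconeogenesis, at 163 CPM. Of these 27, 14 were above the median of mRNAs of similar length, beside 38 of the 185 members.

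The listed rows carried a part of the markers of liver cells. Hepatocyte markers were at 2386 to 21876 CPM (4 of 8 listed, Apob highest) and Kupffer cell markers at 10.2 to 180 CPM (5 of 6 symbols). The unlisted Kupffer cell symbol, Adgre1, is a newer name of Emr1, which was listed. Endothelial markers were at 28.2 to 133 CPM (4 of 4) and stellate cell markers at 3.60 to 185 CPM (4 of 4). The 3 cholangiocyte markers were not listed. Of 3 lymphocyte markers Ptprc alone was listed, at 21.9 CPM, and of 3 red cell markers Alas2 alone, at 37.8 CPM. The hepatocyte markers Alb, Ttr, Cps1 and Hnf4a were also outside the list, so a missing marker does not show that its cells were absent. In whole liver RNA, a low level in every cell and a higher level in few cells cannot be told apart, and this holds for each zinc finger mRNA above.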

How the data were processed

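The authors sequenced ribosome-depleted liver RNA with 50-cycle single-end reads, aligned them with Bowtie to RefSeq mRNAs of mm9 (longest isoform of each gene, unique alignments, up to 2 mismatches) and compared the diets with edgeR for genes above 1 CPM in at least 3 samples. Neither tool versions nor the normalization are given in the sources that were read. The deposited log2 CPM values are the authors' mean over the 4 libraries, and were raised back to CPM. The deposited fold changes, p-values and FDR are the authors' own comparison and were not used. The 7000 rows stand in order of that comparison's p-value, so which genes are listed depends on the level filter and on that order, and genes outside the list were not analysed here. There were 0 columns of single mice, so the tests planned on counts, depth per library, replicate spread and the diet comparison could not be run.

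Each member was compared with the non-member rows within 10% of its listed length. Symbols were matched to GENCODE vM1 on NCBIM37 (181 members by symbol, 1 by synonym). The longest complete coding sequence was translated in place of the RefSeq protein planned, and searched for fingers (cysteines 2 to 4 residues apart, 12 residues to the first histidine, histidines 3 to 5 apart), for linkers, and for a KRAB core (EEW with LY and VM within 40 residues). Promoter composition came from RefSeq windows of GRCm38 (140 members). Sequence words of 50 bases were looked up, without mismatches, on the sense strand of the longest mRNA of every other coding gene entry. Scripts were tested on simulated data. The members and the gene lists were chosen with earlier results of these data known. Named members are the 15 highest and 5 lowest per kilobase, all Zkscan and Zscan, those with no finger or the most fingers, and 4 lists by role; members of runs, of the highest 25% of a length class and of high shared sequence were named after their values were seen. Values were computed in Python 3.11.15 with pandas 2.3.3, numpy 2.4.6 and scipy 1.17.1, and plotted with matplotlib 3.10.9.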

Additional observations from a re-analysis of the deposited data

How the results depend on the processing

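Under the alternatives run, the direction was kept. The median log2 difference from mRNAs of similar length, -1.19, lay between -1.03 (members of at least 2 CPM) and -1.26 (length window of 5%), and the share of members below their length-matched median between 78.4% (window of 20%) and 80.8% (members with a finger match). The median level was 9.87 CPM for members of at least 2 CPM and 7.76 CPM for those with a finger match. The median finger count was 9 with the narrow pattern as well. The log2 ratio of median CPM, not matched for length, between members next to a rule gene and the rest, -0.17, was -0.24 with neighbours within 3 genes and -0.046 without members of more than 10% shared words. Matched for length, the medians of both groups were -1.26 and -1.17, and -1.41 and -1.04 within 3 genes. Among members without a KRAB match the order was reversed, at -0.92 directly next to a rule gene and -1.04 otherwise. The log2 ratio of median CPM between members with and without a KRAB core, also not matched for length, was -0.64, and -0.65 with a wider pattern. Matched for length, the medians of both groups were -1.64 and -0.98, and -1.53 and -0.92 with the wider pattern. The alternatives on listed length, shared words and the wider KRAB pattern were added after the data were seen. Leaving out a mouse, other normalizations and other count filters were not run. No paired analysis was possible because the columns carry no single mouse and no result comes from a test. Precision at low CPM depends on depths that are unknown here.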
